A study of Mus musculus with 4 samples.

Results

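Immunoglobulin genes were followed here in RNA sequencing of cultured mouse CD4 T cells. The members were selected on their annotation and their summed counts. They are the genes annotated as immunoglobulin variable (V) or constant (C) segments that held at least 5 reads over the 4 libraries together. Of the 231 V and C genes listed in the count table, 104 met this rule, out of 52636 genes of all kinds. They comprised 49 heavy, 41 kappa and 3 lambda V segments and 7 heavy, 1 kappa and 3 lambda C genes. Of the genes that did not meet it, 83 had no read and 44 had 1 to 4 reads. Just inside the threshold, 2 segments (Ighv1-42 and Ighv5-17) held 5 reads, and just outside it 10 segments held 4. Ighe, the constant gene of IgE, was outside with 2 reads, and Iglc4 had 0.

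Naive CD4 T cells had been taken from the spleens of C57BL/6 mice of 2 genotypes, E4BP4-conditional knockout (E4BP4-cKO) and wild-type, with 2 libraries each. Both groups spent 3 days in culture with 10 ng/ml of IL-6, 10 ng/ml of IL-21, 10 µg/ml of each of the antibodies against IFN-γ and IL-4, and 20 µg/ml of antibody to TGF-β. This medium favours T follicular helper (Tfh) cells, which help B cells in germinal centres. The study asked what E4BP4, a transcription factor encoded by Nfil3, does in the differentiation of such cells. The labels name neither the Cre driver nor the deleted stretch of the gene, nor the sex and age of the mice. Whether libraries of the same group stem from separate mice is not stated either, so p-values measure the spread between these libraries only.

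Nfil3 itself went against the labels. E4BP4-cKO 1 and 2 had 4649 and 3965 reads of it, and wild-type 1 and 2 had 290 and 377. In CPM, reads scaled to the same library size, this was 198 ± 26.6 against 14.03 ± 1.09 (mean ± SD, n = 2 each), a log2 difference of 3.82 ± 0.15 (SE) in the direction opposite to a loss. Counts over the whole gene do not show whether part of it was deleted. The text therefore keeps to the labels, and no direction is read as an effect of losing E4BP4. Total counts ran from 19057077 to 26579592 per library, so that 1 read corresponded to 0.0385 to 0.0546 CPM. The smallest p of an exact permutation test of 2 libraries against 2 is 0.333, so single values carry no test of that kind. T cell markers were abundant in each library. Cd3e, a chain of the T cell receptor complex, had 4396 to 5168 reads. Of the 8 T cell markers 0 were called between the groups by edgeR, with 2 at an unadjusted p under 0.05. DESeq2 called 1 of them and limma-voom 0. Over all genes tested edgeR called 14.2% in either direction.

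An antibody is built from paired heavy and light chains. In developing B cells a V segment is joined to shorter D and J segments (heavy) or to a J segment (kappa and lambda), and the joined exon is spliced to a constant gene. The heavy constant gene sets the isotype: Ighm encodes IgM and Ighd IgD, and class switching replaces them with a gene of the IgG, IgE or IgA classes. Each B cell clone normally uses a single productive heavy and a single productive light chain, and plasma cells carry far more immunoglobulin mRNA than resting B cells. T cells rearrange their receptor genes instead, but are known to carry unrearranged transcripts of the heavy constant region. In bulk RNA such as this, fewer cells of a type and less RNA per cell cannot be told apart.

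The V segments below led the reads of a chain in a library, or, for Ighv1-23, were called higher under the E4BP4-cKO label. They are shown because different segments led in libraries with the same label. Each line gives the last 90 bases of the segment's annotated germline exon on its coding strand, from the GENCODE M21 transcripts on GRCm38 (mm10). Capitals mark a tyrosine codon, a tyrosine or phenylalanine codon and a cysteine codon in frame with each other, the end of framework 3 where the third hypervariable loop begins. The search took TAT or TAC, then TAT, TAC, TTT or TTC, then TGT or TGC, within the last 40 bases on the coding strand only. It found this run in 91 of the 93 variable members (97.8%) and in 209 of all 218 listed V genes (95.9%).
Ighv1-23, chr12:114764450-114764539, minus strand: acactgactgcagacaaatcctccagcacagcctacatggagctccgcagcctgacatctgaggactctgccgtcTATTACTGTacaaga
Ighv1-69, chr12:115623161-115623250, minus strand: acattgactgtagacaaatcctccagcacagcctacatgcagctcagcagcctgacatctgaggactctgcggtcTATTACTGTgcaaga
Ighv9-3, chr12:114140692-114140781, minus strand: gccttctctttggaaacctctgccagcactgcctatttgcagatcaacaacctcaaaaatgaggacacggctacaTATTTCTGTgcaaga
Igkv3-1, chr6:70704088-70704177, plus strand: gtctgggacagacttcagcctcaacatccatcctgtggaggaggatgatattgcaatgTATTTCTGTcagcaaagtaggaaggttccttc
Igkv6-25, chr6:70215868-70215957, plus strand: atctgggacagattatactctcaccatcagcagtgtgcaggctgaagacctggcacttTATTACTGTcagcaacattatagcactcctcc
Iglv2, chr16:19260401-19260490, minus strand: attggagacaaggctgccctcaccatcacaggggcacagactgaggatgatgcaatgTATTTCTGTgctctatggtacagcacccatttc
Iglv3, chr16:19241207-19241296, minus strand: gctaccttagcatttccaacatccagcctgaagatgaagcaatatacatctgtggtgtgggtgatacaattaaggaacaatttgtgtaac

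Iglv3 has no capitals because the searched letters were not in its window. Over their whole transcripts Ighv1-23 and Ighv1-69, of the same family, were 84.0% identical, and either of them was 66.2% identical to Ighv9-3. Igkv3-1 and Igkv6-25 were 68.2% identical. Reads that fall in stretches common to several genes can be counted wrongly, and the labels do not say how such reads were treated. Of the 104 members, 20 shared no 50-base stretch with a transcript of another gene, 72 shared some but under 50% of theirs, and 12 shared 50% or more. Ighv1-23 shared 28.8% of its 50-base stretches, most with Ighv1-15 (20.9%), and 0 of its 100-base stretches. Values of V segments are accordingly uncertain where a close copy exists, while Ighm, Igkc, Igha and Iglv3 shared none.

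Immunoglobulin reads were scarce in every library and several-fold scarcer in both libraries labelled E4BP4-cKO. The members held 2381 and 861 reads in E4BP4-cKO 1 and 2, and 10947 and 12450 in wild-type 1 and 2. These are 0.00896%, 0.00452%, 0.0508% and 0.0509% of all counts. The summed level was 69.3 ± 31.5 CPM (SD, n = 2) in the libraries labelled E4BP4-cKO and 494.5 ± 8.38 CPM in those labelled wild-type, 7.14-fold higher. Over the 4 ways to pair a library of each label, the ratio ran from 5.34 to 10.6. The groups did not overlap. The libraries labelled wild-type lay close together (500.4 and 488.6 CPM), whereas E4BP4-cKO 1 (91.6 CPM) stood well above E4BP4-cKO 2 (47.0 CPM). Leaving out Ighm and Igkc, the most abundant members, the ratio was 6.73. It was 7.35 for the constant genes and 6.38 for the V segments, so both kinds of segment were lower. A sum over members carries no p-value.

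**Figure D1:**
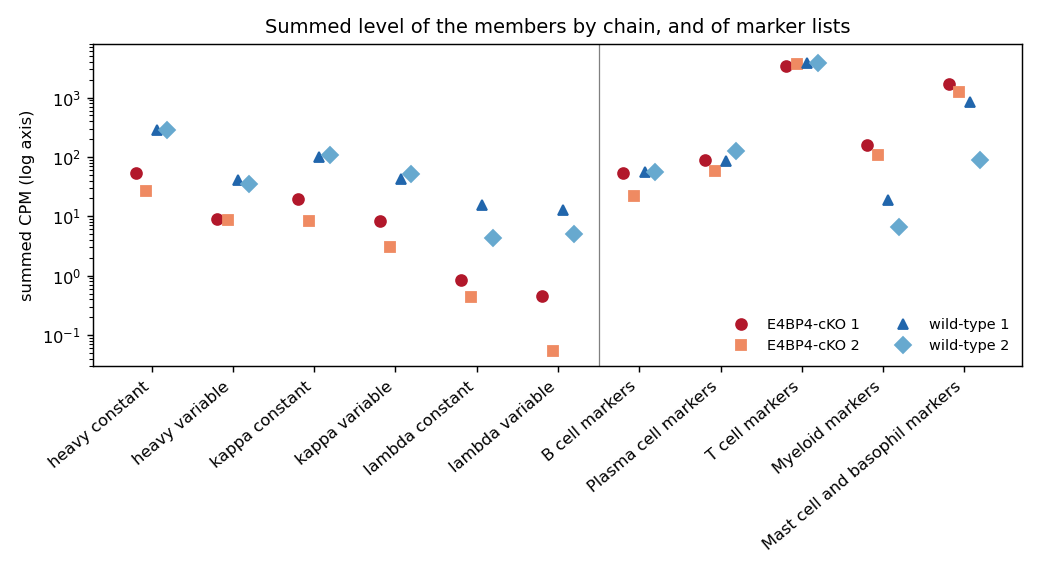
Summed CPM (log axis) of the immunoglobulin members by chain and kind of segment, left of the line, and of marker gene lists of cell types, right of it, with 1 point per library. In each of the 6 immunoglobulin classes both libraries labelled wild-type lie above both labelled E4BP4-cKO, whereas the myeloid and the mast cell and basophil markers lie the other way round and the T cell markers lie together.

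By chain, the difference was smallest for heavy V segments and largest for lambda. Heavy V segments together held 9.11 and 8.73 CPM in E4BP4-cKO 1 and 2 against 40.7 and 35.6 CPM in wild-type 1 and 2, a 4.27-fold difference (3.9 to 4.66 over the pairings). Kappa V segments held 8.31 and 3.0 CPM against 43.3 and 51.8 CPM, an 8.41-fold difference. Lambda V segments held 0.461 and 0.0546 CPM against 12.9 and 5.02 CPM. The last ratio, 34.7, rests on 12 reads and 1 read in the libraries labelled E4BP4-cKO and ran from 10.9 to 236 over the pairings. All 6 classes were separated by label, and the range of the ratio for heavy V segments lay below that of the other 5 classes. Ighv1-23 alone held 2.35 and 6.11 CPM of the heavy V sum in E4BP4-cKO 1 and 2. In wild-type 1 and 2 it held 0.274 and 0.746 CPM. It ran opposite to the sum and was 25.7% and 70.0% of the heavy V reads in E4BP4-cKO 1 and 2. The lower heavy V ratio rests on this 1 segment, since without it the ratio exceeds that of the heavy constant genes. That omission was made after its values had been seen. Whether the chains differ in their ratio was not tested.

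Among the heavy constant genes, Ighm, which encodes the µ chain of IgM, was the most abundant. It lies on chr12:113418558-113422730, minus strand, and had 1129, 426, 5283 and 6196 reads in E4BP4-cKO 1, E4BP4-cKO 2, wild-type 1 and wild-type 2. Its level was 33.3 ± 14.3 CPM (SD, n = 2) against 242 ± 1.17 CPM, and the log2 difference of E4BP4-cKO against wild-type was -2.86 ± 0.30 (SE; edgeR quasi-likelihood test, Benjamini-Hochberg adjusted p over all genes tested 0.0194). Both libraries labelled wild-type were above both labelled E4BP4-cKO. Igkc, the only kappa constant gene (chr6:70726435-70726966, plus strand), had 499, 151, 2178 and 2696 reads. Its log2 difference was -2.89 ± 0.38 (edgeR adjusted p = 0.0240), much the same as that of Ighm. Of all genes tested, 14.2% were called in either direction at an adjusted p of 0.05, with 6.53% lower and 7.68% higher in the libraries labelled E4BP4-cKO.

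Every tested IgG constant gene had more reads in both libraries labelled wild-type. The 4 genes encode the γ chains of the IgG subclasses, which B cells come to use after class switching. Ighg2c (chr12:113285325-113288932, minus strand) had 34, 16, 376 and 303 reads, in the same library order, and a log2 difference of -3.71 ± 0.34 (edgeR adjusted p = 0.0162). Ighg2b had 64, 13, 272 and 536 reads and a log2 difference of -3.35 ± 0.59 (edgeR adjusted p = 0.0314). Ighg1 had 42, 12, 192 and 169 reads and a log2 difference of -2.72 ± 0.47 (edgeR adjusted p = 0.0301). These 3 were called lower in the libraries labelled E4BP4-cKO. Ighg3 had 28, 4, 182 and 81 reads, and its log2 difference of -3.07 ± 0.79 did not pass (edgeR adjusted p = 0.0574). Of its 10 alternatives 5 called it, among them DESeq2 (adjusted p = 0.0016), edgeR without E4BP4-cKO 1 (0.0488) and edgeR without wild-type 2 (0.0428). Without E4BP4-cKO 2 the call was lost for Ighg1 and Ighg2b (edgeR adjusted p = 0.0713 and 0.0740). It was also lost for Ighg1 without wild-type 1 (0.0849) and for Ighg2b without wild-type 2 (0.0507). Ighg2b and Ighg2c were 87.8% identical over their aligned bases, and 6.01% of the 50-base stretches of Ighg2c were found in Ighg2b.

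Igha went the other way. This gene (chr12:113254830-113260236, minus strand) encodes the α chain of IgA, the isotype of mucosal surfaces. It had 95 and 15 reads in E4BP4-cKO 1 and 2, 6 in wild-type 1 and 0 in wild-type 2, the only constant gene with both libraries labelled E4BP4-cKO above both labelled wild-type. Its level was 2.24 ± 2.00 CPM against 0.137 ± 0.194 CPM, and the log2 difference of 4.08 ± 1.22 did not pass (edgeR adjusted p = 0.0768). Over the alternative settings the adjusted p ran from 2.02e-10 to 0.222, and 3 of them called it. The log2 difference was 2.61 without E4BP4-cKO 1 and 8.73 without wild-type 1, which leaves a library at 0 alone in its group. Igha reached the filter on low counts only in the libraries labelled E4BP4-cKO, so it had to differ to be tested. Most of its reads were in E4BP4-cKO 1. Ighd, the δ chain of IgD carried by mature naive B cells, had 3, 0, 4 and 8 reads and was too low to test. The 0 in E4BP4-cKO 2 allows up to 0.164 CPM (3 counts, counting error only).

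**Figure D2:**
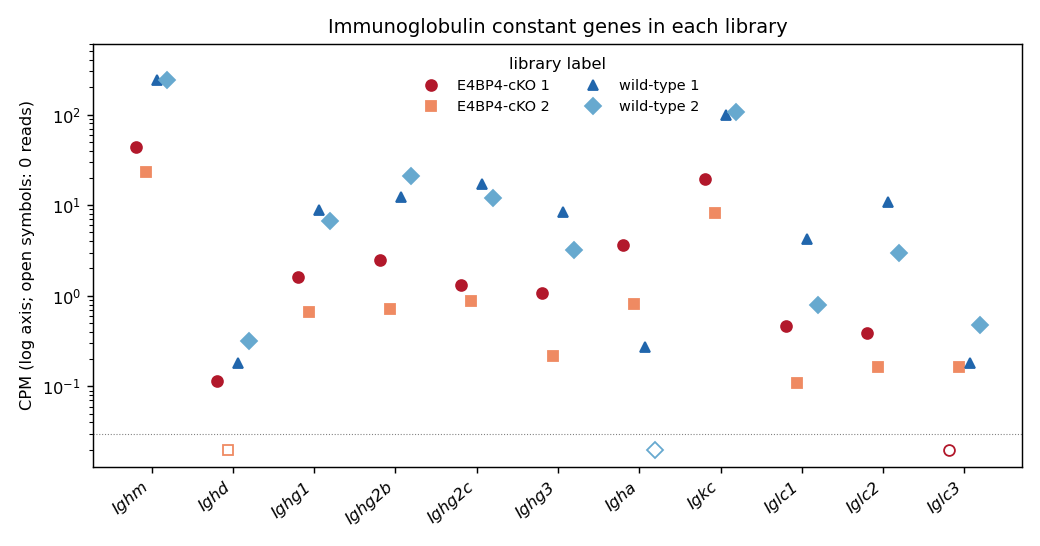
Level of the 11 immunoglobulin constant genes in CPM on a log axis, with 1 point per library and open symbols below the dotted line for 0 reads. Both libraries labelled wild-type lie above both labelled E4BP4-cKO for 10 of the genes, and Igha shows the reverse order.

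Per kilobase of annotated gene length, the make-up of the heavy constant reads was dominated by Ighm in each library. Ighm made up 84.0% and 88.7% of the summed heavy constant level in E4BP4-cKO 1 and 2, and 83.9% and 86.1% in wild-type 1 and 2. The IgG genes together made up 10.8% and 9.09% against 15.9% and 13.8%. Igha made up 5.0% and 2.21% against 0.0674% and 0. The share of Ighm overlapped between the labels, while those of the IgG genes together and of Igha did not. Of the IgG genes only Ighg2c was separated, at 3.6% and 4.74% against 8.5% and 5.99%. Ighg1, Ighg2b and Ighg3 each overlapped. Among all genes with at least 5 reads, 29.9% had both libraries labelled wild-type above both others in CPM, and 31.4% had the reverse. With 2 libraries a group these shares were compared with no test. Ighm per kilobase stood at 0.638, 0.796, 0.684 and 0.648 of Igkc in the same order, so the balance of the most abundant heavy and light constant genes was similar whatever the label. V segments of the heavy chain per kilobase stood at 0.885, 1.75, 0.728 and 0.649 of the heavy constant genes. The ratio was highest in E4BP4-cKO 2, where Ighv1-23 alone was 70.0% of the heavy V reads.

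Under the wild-type label, lambda reads varied more between the libraries than kappa reads did. Kappa made up 95.5% of all light chain reads in E4BP4-cKO 1 (95% exact binomial interval 93.7% to 96.8%), 95.8% in E4BP4-cKO 2 (92.2% to 98.1%), 83.5% in wild-type 1 (82.3% to 84.7%) and 94.4% in wild-type 2 (93.7% to 95.1%). The intervals cover counting error only. Wild-type 1 stood apart with the lowest kappa share, and wild-type 2 was within the intervals of both libraries labelled E4BP4-cKO. The low share was thus that of 1 library. Iglc2, a lambda constant gene on chr16:19198396-19200351 (minus strand), had 10, 3, 238 and 76 reads. Its log2 difference was -4.57 ± 0.83 (edgeR adjusted p = 0.0330). It reached the filter on low counts only in the libraries labelled wild-type, so it had to differ to be tested. That call was lost without E4BP4-cKO 1 (edgeR adjusted p = 0.0583), E4BP4-cKO 2 (0.113) or wild-type 1 (0.0550), and by limma-voom (0.0660). Iglc1, with 12, 2, 93 and 20 reads, did not pass (edgeR adjusted p = 0.0993, with 4 of 10 alternatives calling it), and Iglc3, with 0, 3, 4 and 12 reads, was not tested.

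Iglc2 and Iglc3 are near copies, 95.3% identical over their aligned bases, and 7.72% of the 50-base stretches of Iglc2 were found in Iglc3. Their first matching 90 bases are shown to let a reader see how few letters separate them, with capitals at the 7 mismatches. The stretch covers bases 169 to 258 of the Iglc2 transcript and 15 to 104 of the Iglc3 transcript in GENCODE M21.
Iglc2: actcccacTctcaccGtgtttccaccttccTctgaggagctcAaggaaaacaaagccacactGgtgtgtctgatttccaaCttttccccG
Iglc3: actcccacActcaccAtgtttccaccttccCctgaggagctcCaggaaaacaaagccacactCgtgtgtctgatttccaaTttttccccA
The exons of both also overlap those of another gene, Iglj2 for Iglc2 and an antisense RNA for Iglc3. The labels do not give the strand setting of the counting, so the division of reads between such genes is uncertain.

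Few V segments could be tested, and those that could were mostly those abundant in the libraries labelled wild-type. Of the 93 V members 22 passed the filter on low counts, as did 9 of the 11 constant members. Of these 31, 16 reached the filter's level in both libraries labelled wild-type and in neither labelled E4BP4-cKO, so that they had to differ to be tested at all. Among the 31, 14 were called lower (6 constant, 8 V) and 1 V segment was called higher. Of the 14, 9 had passed the filter only through the libraries labelled wild-type, namely Iglc2 and all 8 V segments. These counts stand beside 6.53% lower and 7.68% higher among all genes tested and are a description of the members that passed, not of the 104. Their median log2 difference was -3.49, against 0.02 over all genes tested. Without E4BP4-cKO 2 only Ighm, Igkc and Ighg2c of the 15 stayed called, without wild-type 1 these and Ighg2b, without E4BP4-cKO 1 there were 9 of them, and without wild-type 2 there were 11. Ighm, Igkc and Ighg2c were called in the main test and in each of its 10 alternatives.

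The order of the libraries needs no filter. Of the 93 V members, 35 had both libraries labelled wild-type above both labelled E4BP4-cKO, 2 (Ighv1-23 and Ighv1-59) had the reverse, and 56 overlapped. Among all genes with at least 5 reads, the first order held for 29.9% and the reverse for 31.4%. For the constant members the counts were 10 and 1 of 11. Low counts make ties at 0 frequent among V segments, and a tie was taken as an overlap.

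The kappa segments Igkv9-120 and Igkv6-15 had reads in both libraries labelled wild-type and nearly none elsewhere. Igkv9-120 had 1, 0, 37 and 31 reads, in the order E4BP4-cKO 1, E4BP4-cKO 2, wild-type 1 and wild-type 2. Its pooled ratio of wild-type over E4BP4-cKO was 63.6 (95% exact counting interval 11 to 2550; edgeR adjusted p = 0.0242). Igkv6-15 had 1, 2, 28 and 31 reads, a ratio of 18.4 (6.0 to 91.8; edgeR adjusted p = 0.0270). Both were called lower in the libraries labelled E4BP4-cKO. Igkv4-59 had 0, 0, 13 and 21 reads and was at least 5.08-fold higher in the libraries labelled wild-type, taking 3 counts per library as the floor (edgeR adjusted p = 0.0327). This segment shares 74.3% of its 50-base stretches with other genes. The others called lower were Igkv1-135 with 4, 0, 85 and 42 reads, Igkv10-94 with 3, 0, 33 and 21, Ighv1-9 with 1, 0, 13 and 28, Ighv8-12 with 1, 0, 19 and 13, and Ighv8-8 with 1, 0, 51 and 13. Each of the 8 lost its call without E4BP4-cKO 2 (edgeR adjusted p 0.0715 to 0.154) and without wild-type 1 (0.0542 to 0.141).

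Ighv1-23 was the single V segment called higher in the libraries labelled E4BP4-cKO. It had 61 and 112 reads there against 6 and 19 in wild-type 1 and 2, which is 4.23 ± 2.67 CPM (SD, n = 2) against 0.510 ± 0.333 CPM. The groups did not overlap, although the level in E4BP4-cKO 2 (6.11 CPM) was well above that in E4BP4-cKO 1 (2.35 CPM). The log2 difference was 3.0 ± 0.69 (edgeR adjusted p = 0.0468). The call was lost by limma-voom (adjusted p = 0.0619) and, in edgeR, without E4BP4-cKO 2 (0.133), wild-type 1 (0.150) or wild-type 2 (0.0545). The germline sequence above is that of the reference, since the counts do not show which joined or mutated forms were present.

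Most of the abundant V segments belonged to a single library. Ighv9-3, the heavy segment with most reads, had 4, 0, 248 and 12. Ighv1-69, by contrast, had 1, 0, 13 and 145. Both were high in 1 of the libraries labelled wild-type and low in the other, and neither passed (edgeR adjusted p = 0.0846 and 0.0521). Of the 10 alternatives 3 called Ighv9-3 and 5 called Ighv1-69, with edgeR calling Ighv9-3 without wild-type 2 (adjusted p = 0.0143) and Ighv1-69 without wild-type 1 (0.0152). Among kappa segments Igkv3-1 had 0, 0, 1 and 228 reads, Igkv17-121 had 1, 0, 1 and 174, and Igkv15-103 had 1, 0, 0 and 137. These 3 were all but confined to wild-type 2 and were not tested. Igkv6-25, with 1, 0, 121 and 2 reads, was likewise confined nearly to wild-type 1. The heavy segments Ighv2-2, with 0, 4, 5 and 108 reads, and Ighv14-3, with 1, 0, 5 and 102, led in wild-type 2.

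The lambda V segments split in the same manner. Iglv3 had 1, 0, 178 and 16 reads, Iglv1 had 10, 0, 104 and 53, and Iglv2 had 1, 1, 0 and 59. Iglv3 thus led in wild-type 1 and Iglv2 in wild-type 2, where Iglv3 took 12.5% of the lambda V reads. Neither Iglv3 nor Iglv1 passed (edgeR adjusted p = 0.0557 and 0.0528), while DESeq2 called both (adjusted p = 0.0003 and 0.00167). Of the 10 alternatives 4 called Iglv3 and 5 called Iglv1, with edgeR calling Iglv3 without wild-type 2 (adjusted p = 0.0108) and Iglv1 without E4BP4-cKO 1 (0.0410). Iglv2 was not tested. Iglv1 and Iglv2 were 96.7% identical, so their split is less certain than that of Iglv3, which was 61.7% identical to Iglv1.

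**Figure D3:**
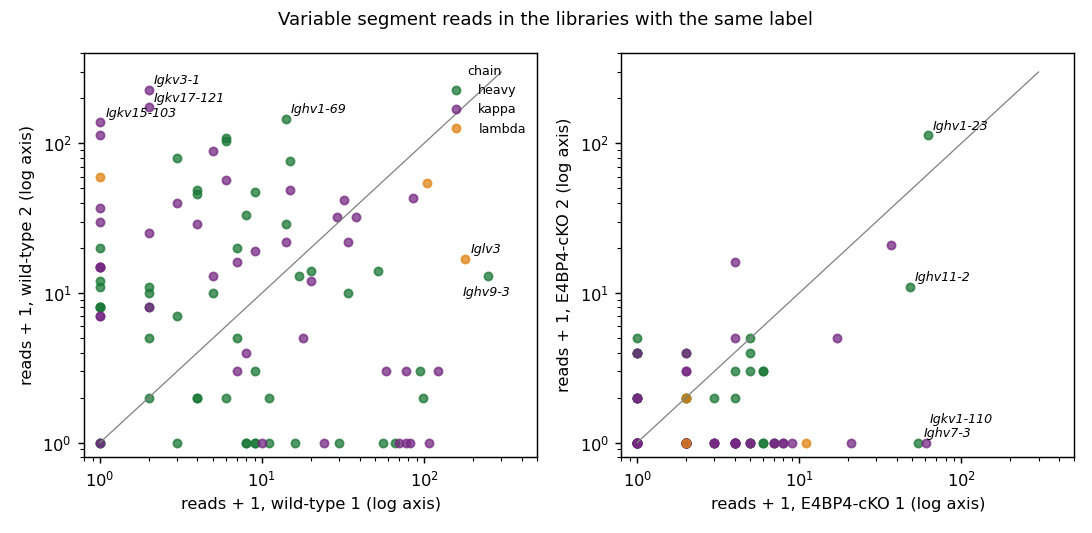
Reads of each V segment, plus 1, on log axes, in wild-type 1 against wild-type 2 (left) and in E4BP4-cKO 1 against E4BP4-cKO 2 (right), with colours for the chain and a line at equal counts. Many segments lie along an axis, with many reads in 1 library and few or 0 in the other, while Ighv1-23 is high in both libraries labelled E4BP4-cKO.

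Most V members with enough reads to judge were concentrated in this way. Of the 57 with at least 20 reads, 34 had 80% or more of their reads in 1 library, which was wild-type 2 for 19, wild-type 1 for 14, E4BP4-cKO 1 for 1 and E4BP4-cKO 2 for 0. The median share of the top library was 87.5%. Of the 28 segments with at least 50 reads in a library labelled wild-type, 24 were 10-fold or more apart in reads between the 2 libraries with that label (22 in CPM), and 9 were at 0 in the other. The summed V level of those libraries, 96.9 and 92.3 CPM, was nearly equal all the same. The libraries labelled wild-type were therefore alike in how much V sequence they held and unlike in which segments carried it.

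The leading segments differed likewise. The top 10 segments of wild-type 1 and of wild-type 2 had 0 in common. Their shared usage, the sum over segments of the smaller of the 2 shares of V reads, was 21.1%. E4BP4-cKO 1 and 2 had 4 of their top 10 in common (Ighv1-23, Ighv11-2, Igkv14-111 and Igkv14-126) and a shared usage of 36.1%. Pairs of libraries with different labels shared 13.9% to 25.3%. These 4 segments were picked out after their values had been seen. In E4BP4-cKO 2 ranks 5 to 10 held only 4 or 3 reads each, with Igkv14-111 at 4. T cell receptor V genes, selected at the same threshold and read from the same libraries, shared 86.2% to 89.9% of their usage in every pair, and Trbv13-2 led in each library with 9.91% to 13%. Their 5690 to 6775 reads per library exceed the 216 to 2353 of the immunoglobulin V segments. Sampling noise alone gives a chi-square per degree of freedom near 1. For usage between the libraries of a label it was 21.7 (E4BP4-cKO) and 43.9 (wild-type) for immunoglobulin V. For T cell receptor V it was 2.62 and 3.32. Only segments with at least 10 reads under the label entered. These were 9 (E4BP4-cKO) and 70 (wild-type) for immunoglobulin V, and 90 under either label for T cell receptor V.

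**Figure D4:**
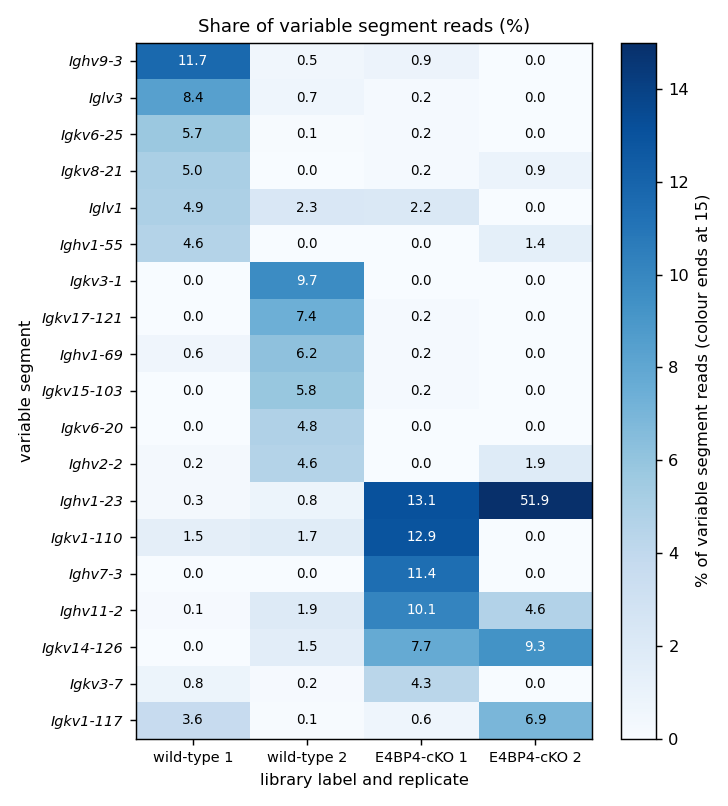
Share of the V reads of each library (percent) taken by the 6 leading segments of each library that held at least 10 reads there, with the value in each cell and darker colour for a larger share. Few segments are prominent in more than 1 library, and Ighv1-23 takes 13.1% and 51.9% of V reads in E4BP4-cKO 1 and 2.

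The number of V segments seen depended on depth. At least 1 read was found for 68 V members in E4BP4-cKO 1, 31 in E4BP4-cKO 2, and 74 in each library labelled wild-type. Thinned to the 216 V reads of E4BP4-cKO 2, the expected numbers were 50.4, 31.0, 45.4 and 49.8. In number of segments E4BP4-cKO 1 was thus no poorer than the libraries labelled wild-type at equal depth, and E4BP4-cKO 2 stood alone. The inverse Simpson index, the number of equally used segments that would give the same concentration, was 14.4, 3.47, 22.2 and 26.1. By this index both libraries labelled E4BP4-cKO were more concentrated than both labelled wild-type, a comparison made with no test. Segments outside the membership threshold are left out of these numbers. Over all 218 listed V genes the index was 16.2, 4.0, 22.7 and 26.9.

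**Figure D5:**
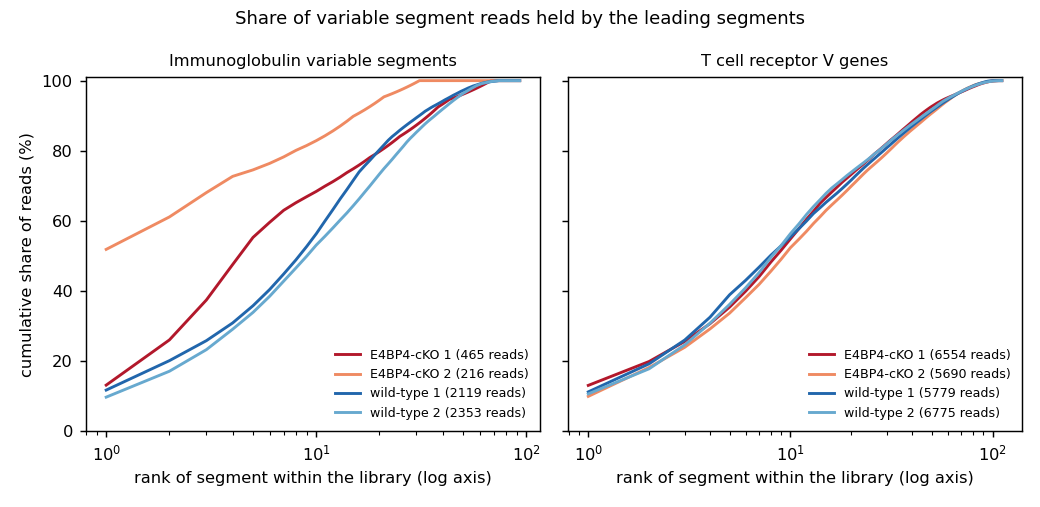
Cumulative share of V reads (percent) against the rank of the segment within each library (log axis), for immunoglobulin V members on the left and T cell receptor V genes on the right, with 1 line per library. The lines of the T cell receptor genes lie together, whereas the 5 leading immunoglobulin segments take 74.5% of V reads in E4BP4-cKO 2 and 55.3% in E4BP4-cKO 1, against 35.8% and 33.9% in wild-type 1 and 2.

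Families of V segments, which group segments by sequence similarity, were compared by their share of a chain's V reads, with no test. The largest heavy family, Ighv1, with 27 members, took 41.8% and 81.2% of the heavy V reads in E4BP4-cKO 1 and 2, and 41.3% and 60.2% in wild-type 1 and 2. The Ighv9 family, of which Ighv9-3 was the only member, took 1.69%, 0, 27.9% and 1.32%. Ighv7 reads came from Ighv7-3 and were found in E4BP4-cKO 1 alone, with 53 reads and 22.4% of its heavy V reads. Of the 13 heavy families 9 overlapped between the labels, 1 (Ighv8) had the larger share in both libraries labelled wild-type, and 3 (Ighv6, Ighv11 and Ighv12) had it in both labelled E4BP4-cKO. Of the 15 kappa families 11 overlapped. Igkv14 took 24.1% and 43.6% of the kappa V reads in E4BP4-cKO 1 and 2 against 2.01% and 3.56% in wild-type 1 and 2, and Igkv1 took 34.3% and 27.3% against 20.4% and 6.44%. Igkv6 went the other way, with 4.63% and 3.64% against 19.9% and 17.7%, as did Igkv8, with 2.78% and 7.27% against 21.3% and 8.57%. The 55 kappa V reads of E4BP4-cKO 2 make its shares coarse. In E4BP4-cKO 1 and 2 and wild-type 1 and 2, Ighv6 had 8, 2, 6 and 2 reads. Ighv12 had 4, 4, 8 and 2, so both separations rest on few reads. Among all genes with at least 5 reads, 29.9% had both libraries labelled wild-type above both others in CPM. For 31.4% the order was the reverse. The separated families are thus a description only.

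Of genes that B cells use to make, sense or control their receptor, a minority was called, in both directions. Of the 22 genes of the B cell receptor and identity list 20 were tested. In the libraries labelled E4BP4-cKO, 4 of them were lower (Pou2af1, Spib, Bank1 and Cd74) and 2 higher (Cd72 and Cd37). Their median log2 difference was -0.97, against 0.02 over all genes tested, of which 6.53% were lower and 7.68% higher. Pou2af1, the coactivator of octamer factors at immunoglobulin promoters, had 486, 240, 3580 and 2233 reads and a log2 difference of -2.98 ± 0.35 (edgeR adjusted p = 0.0213). Spib, an Ets factor of B cells and plasmacytoid dendritic cells, had 103, 32, 363 and 383 reads. Bank1, an adaptor of B cell receptor signalling, had 30, 4, 166 and 127. Cd72, an inhibitory co-receptor of B cells, rose, with 146, 127, 23 and 23 reads and a log2 difference of 2.68 ± 0.31 (edgeR adjusted p = 0.0213). The groups did not overlap for any of these 4 genes, which were named for their low p, a choice that favours separation. Among all genes with at least 5 reads, 29.9% had both libraries labelled wild-type above both others, and 31.4% had the reverse. Without E4BP4-cKO 2 the list had 0 calls by edgeR, with 11 at an unadjusted p under 0.05. It had 9 calls without E4BP4-cKO 1 and 3 without wild-type 1.

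Genes of antibody secretion were split. In the plasma cell list 11 of 12 genes were tested, with 4 lower (Mzb1, Derl3, Jchain and Tnfrsf13b) and 2 higher (Prdm1 and Ssr4) in the libraries labelled E4BP4-cKO, and a median log2 difference of -0.17. Over all genes tested 6.53% were lower and 7.68% higher, with a median of 0.02. Jchain, which joins IgM and IgA into polymers, had 36, 6, 163 and 199 reads and a log2 difference of -3.09 ± 0.59 (edgeR adjusted p = 0.0355). Mzb1, a chaperone cofactor of antibody assembly, had 80, 33, 407 and 287 reads and a log2 difference of -2.60 ± 0.39 (edgeR adjusted p = 0.0274). Derl3, of endoplasmic reticulum quality control, had 18, 5, 69 and 117 reads, and Tnfrsf13b, a receptor for BAFF and APRIL, had 837, 412, 1246 and 1340. Prdm1, the transcription factor of plasma cells that effector T cells also use, went the other way, with 260, 369, 94 and 105 reads. Jchain stood in a similar proportion to the members in 3 libraries. There were 66.1, 67.2 and 62.6 member reads per Jchain read in E4BP4-cKO 1, wild-type 1 and wild-type 2, and 144 in E4BP4-cKO 2, where Jchain had 6 reads. Without E4BP4-cKO 2 or without wild-type 1 the plasma cell list had 0 calls by edgeR, with 7 at an unadjusted p under 0.05 in either case, and without wild-type 2 it had 1.

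The enzymes that assemble, mutate and switch immunoglobulin genes were called in 1 direction only. Of 23 genes on the diversification and assembly list 19 were tested by edgeR, of which 0 were higher and 5 lower, among them Ung, Exo1, Apex1 and Rif1, with a median log2 difference of -0.49, against 6.53% lower, 7.68% higher and a median of 0.02 over all genes tested. At an unadjusted p under 0.05, 0 were higher and 8 lower, and DESeq2 and limma-voom also called 0 higher. Ung, a uracil glycosylase of base excision repair, had 477, 315, 1068 and 945 reads and a log2 difference of -1.27 ± 0.18 (edgeR adjusted p = 0.0254). Exo1, an exonuclease of mismatch repair, had a log2 difference of -1.21 ± 0.20 (edgeR adjusted p = 0.0294). These repair enzymes serve dividing cells of any kind. Genes of developing lymphocytes had few reads. Vpreb1, of the surrogate light chain, had 14, 1, 16 and 19, and Dntt, the terminal transferase, had 1, 5, 16 and 11, while Rag2 and Vpreb2 had none. Neither Vpreb1 nor Dntt passed (edgeR adjusted p = 0.333 and 0.156). Leaving out E4BP4-cKO 2 or wild-type 1 left 0 calls by edgeR, with 7 and 6 at an unadjusted p under 0.05, and leaving out wild-type 2 left 3.

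Markers of B cells differed less between the labels than the immunoglobulin members did, a comparison of levels made with no test. The 10 B cell markers together stood at 52.6 and 22.1 CPM in E4BP4-cKO 1 and 2 and at 56.5 and 56.0 CPM in wild-type 1 and 2. Of the 9 tested, 0 were called by edgeR, with 4 lower at an unadjusted p under 0.05. DESeq2 called 2 lower and limma-voom 0, and without E4BP4-cKO 1 edgeR called 3 lower. None of the 10 was at 0 in any library. Ms4a1, which encodes CD20, had 31, 5, 118 and 70 reads (edgeR adjusted p = 0.0723). Ebf1, which took the largest part of the sum in E4BP4-cKO 1, had 728, 168, 233 and 585 reads. Without Ebf1, an omission made after its values had been seen, the sums were 24.7, 12.9, 45.8 and 33.0 CPM. Member reads per B cell marker read were 1.74, 2.13, 8.86 and 8.72 with all 10 markers, and 3.71, 3.63, 10.9 and 14.8 without Ebf1. On either sum the groups did not overlap. The 5 plasma cell markers stood at 89.7 and 57.9 CPM against 85.0 and 125 CPM, with Tnfrsf17, which encodes the plasma cell receptor BCMA, at 0 in every library. Most of that sum was Sdc1, which encodes syndecan-1, at 84.5, 55.5, 55.8 and 101.5 CPM. Without Sdc1, again left out after its values had been seen, the sums were 5.15 and 2.40 CPM against 29.2 and 23.7 CPM. Of the 4 tested plasma cell markers, 3 (Jchain, Mzb1 and Derl3) were called lower by edgeR, with 0 called without E4BP4-cKO 2 or without wild-type 1 (3 at an unadjusted p under 0.05 in either case) and 1 without wild-type 2. The calls of B cell and plasma cell markers by edgeR stand beside 6.53% lower and 7.68% higher among all genes tested. The part of B cells and plasma cells in the result was not tested.

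Myeloid and mast cell or basophil markers lay in the opposite direction to the immunoglobulin members. The 6 myeloid markers stood at 159.5 and 107 CPM in E4BP4-cKO 1 and 2 and at 19.02 and 6.55 CPM in wild-type 1 and 2, with 5 of 6 called higher by edgeR in the libraries labelled E4BP4-cKO (2 without E4BP4-cKO 1 and 1 without E4BP4-cKO 2). The 6 mast cell and basophil markers stood at 1720 and 1225 CPM against 844 and 89.1 CPM, with 3 of 6 called higher (1 without either library labelled E4BP4-cKO). None of these 12 genes was at 0 in any library. The calls stand beside 7.68% higher and 6.53% lower among all genes tested. The sum of the 5 CD8 T and NK cell markers was 24.5 and 32.3 CPM against 35.2 and 48.9 CPM. The largest part of it was Eomes, at 11.5 and 24.7 CPM against 28.0 and 41.4 CPM. Cd8a lay the other way, at 9.84 and 4.53 CPM against 4.34 and 4.16 CPM. Cd8b1 and Klrb1c overlapped between the labels, and Ncr1 had no read. The 5 dendritic cell markers stood at 17.5 and 13.1 CPM against 8.503 and 12.05 CPM, and the 8 T cell markers at 3399 and 3749 CPM against 3820 and 3767 CPM, within 1.06-fold by group mean. The part of these other cells in the immunoglobulin difference was not tested.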

How the data were processed

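Total RNA was made into randomly primed cDNA libraries, per the labels' protocols. The deposited table holds the authors' whole-number counts of reads per gene for 4 libraries, not normalised. The submitters' processing notes name CASAVA, HISAT2, featureCounts and the mouse build mm10; they do not state versions, the strand setting, the annotation release or how multiply mapping reads were handled. Gene biotype, length and coordinates are those of the deposited table, and all 104 members had the same start, end and strand in GENCODE M21.

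Counts were tested with edgeR 4.0.16 in R 4.3.3 (TMM factors 0.962 to 1.04, filterByExpr, quasi-likelihood F test, two-sided) on 15503 of 52636 genes, and p-values were adjusted by Benjamini-Hochberg over all of these. The threshold for a call was 0.05 on the adjusted p. Each SE is the log2 difference over the square root of F. CPM values are counts over TMM-scaled library size, and isotype make-up and ratios between V and C genes were taken per kilobase. Shares of V reads, kappa shares and ratios to marker reads are of reads, not corrected for length. The procedure was tested on simulated data. Floors are 3 counts per library, and intervals are exact at 95%, for counting error only. The 2 libraries of a label differed by far more than sampling noise (chi-square per degree of freedom 23.5 for wild-type and 29.9 for E4BP4-cKO).

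The genes named are every constant member, the 6 V members with most reads in each chain, every called member, up to 4 genes of lowest p per list, and Nfil3; other names were chosen after their values were seen, and some listed genes are not reported here. The members and lists were chosen with earlier results of these data known. Alternatives were DESeq2 1.42.0, limma-voom (limma 3.58.1), other scalings, no filter, the replicate number as a block, each library left out, other member sets and thresholds. Sequences and shared stretches came from the GENCODE M21 transcripts on GRCm38. Protein and promoter sequences of the members were not used here.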

Additional observations from a re-analysis of the deposited data

How the results depend on the processing

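Among all genes 2204 were called (1191 higher and 1013 lower under the E4BP4-cKO label), against 3510 with DESeq2, 4917 without a filter on low counts, and 196 to 1630 with a library left out. With total library size in place of TMM the split was 1033 higher and 1636 lower, and the median log2 difference of all genes moved from 0.02 to -0.07. Of the members 15 were called, against 62 without the filter, 21 with DESeq2, 12 with limma-voom and 3 to 16 with a library left out. The B cell list had 6 calls, against 14 without the filter and 0 to 9 with a library left out, the plasma cell list 6 against 0 to 7, and the diversification list 5 against 0 to 5. The lists had their lowest counts without E4BP4-cKO 2, and the cause was not tested.

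The summed level of the libraries labelled E4BP4-cKO was 0.140 of that of the libraries labelled wild-type. It ran from 0.133 to 0.157 over other scalings and member sets, and from 0.0951 to 0.185 with a library left out. The mean kappa share under the E4BP4-cKO label was 95.6%, against 95.4% for constant genes alone and 96.5% for V segments alone (95.5% to 95.8% with a library left out). Under the wild-type label it was 89.0% (83.5% to 94.4% with a library left out). At a minimum of 3 reads, 38 and 15 V segments were seen in E4BP4-cKO 1 and 2 in place of 68 and 31, and wild-type 1 had 45.4 in place of 74 when thinned.

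The sign of the log2 difference turned only among 6 uncalled V segments, with a library left out. Ighv11-2 was at 0.31 and ran from -0.84 (without E4BP4-cKO 1) to 3.08. Without wild-type 1 it was at -0.55. Igkv1-110 was at -0.32 and ran from -8.06 to 0.62 (without E4BP4-cKO 2). Igkv3-7 was at -0.12 and ran from -6.33 to 1.38 (without wild-type 1), with 0.77 without E4BP4-cKO 2. Without wild-type 1, Igkv1-117 went from -2.01 to 2.4, Igkv14-111 from -0.56 to 0.0062 and Igkv14-126 from 0.77 to -0.18. Their other extremes were -3.85, -1.53 and 7.79. The cause was not tested.

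Replicate numbers were not shown to pair the libraries (same-number correlation 0.0578). With them as a replicate block 2439 genes and 22 members (2 higher, 20 lower) were called. Depth limits the V segments, which held 216 reads in all in E4BP4-cKO 2.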

Other observations

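Some V segments are known as background from antibodies of B-1 cells, a B cell lineage that arises early in life. Ighv11-2 had 47, 10, 3 and 45 reads in E4BP4-cKO 1, E4BP4-cKO 2, wild-type 1 and wild-type 2, and Igkv14-126, its known light chain partner in antibodies to phosphatidylcholine, had 36, 20, 0 and 36. Both were low in wild-type 1 and had reads in the other 3 libraries. Ighv12-3, also known from such antibodies, had 4, 4, 8 and 2 reads, and Igkv4-91, its known partner, had 3, 4, 8 and 18, with both libraries labelled wild-type above both others. Neither Ighv11-2 nor Igkv14-126 passed the edgeR test (adjusted p = 0.859 and 0.682), which does not show that they were equal. These segments were chosen after their values were seen, and bulk counts do not show which chains were paired in a cell.

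Immunoglobulin genes outside the members carried few reads. The 14 J segments held 12, 6, 66 and 56 reads in the same order, both libraries labelled wild-type above both others, with Ighj4 the most abundant at 5, 2, 16 and 14. The 155 V pseudogenes held 15, 8, 0 and 11. The 127 V and C genes under the threshold held 30, 17, 22 and 33, which overlapped between the labels.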
